A study of Mus musculus with 13 samples.

Results

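The 10 genes described here make and regulate fatty acids: Fasn, Acaca, Acacb, Acly, Scd1, Scd2, Elovl6, Srebf1, Mlxipl and Thrsp. They were chosen by name for their roles, and their probes were found through the RefSeq accession on the array. All 10 were measured, by 14 probes, among 19752 named genes on the array, of which 15083 were tested. Every one of the 14 probes was well above background on all 12 arrays with a group, and none was saturated.

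Cells build fatty acids in the cytosol from citrate that leaves the mitochondria. ATP citrate lyase (Acly) splits citrate into acetyl-CoA, the acetyl-CoA carboxylases (Acaca and Acacb) make malonyl-CoA, and fatty acid synthase (Fasn) joins these units into palmitate, which Elovl6 lengthens and the stearoyl-CoA desaturases (Scd1 and Scd2) make monounsaturated. SREBP1 (Srebf1), a membrane-bound factor released by proteolysis, and ChREBP (Mlxipl), a glucose-responsive factor, switch these genes on in liver and fat, and Thrsp is a small nuclear protein induced with them.

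The mice were male C57BL/6J. Fv2E-PERK transgenic mice carry a fusion of PERK, an endoplasmic reticulum stress kinase, with a domain that the ligand AP20187 brings together. The groups were transgenic white fat taken 12 h after AP20187 at 100 ng/g (3 arrays), transgenic white fat 12 h after vehicle (2 arrays), white fat of untreated wild-type mice (3 arrays), transgenic brown fat 12 h after AP20187 (2 arrays) and transgenic brown fat 12 h after vehicle (2 arrays). The labels write the line as mAP::Fv2E-PERK and give neither what drives the transgene nor the age of the mice, and no group was wild type with AP20187, so the ligand's own effect and that of kinase activation cannot be told apart. Whether each array holds a different mouse is not stated, and the p-values therefore cover array-to-array spread alone, which may be technical. A 13th array, with labels that contradict each other on tissue, was left out of every group.

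A level below is log2 of the processed intensity minus the 75th percentile of its array, so that 1 unit is a 2-fold difference, and levels of different genes do not compare. Changes are differences of group means with their standard error (SE). They were tested with limma in 1 model of 12 arrays, with p-values adjusted over all 24456 features by the Benjamini-Hochberg method and a threshold of 0.05.

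The arrays did not all measure the same mixture of cells equally well. Spots well above background made up 49.0% to 51.5% in white fat with AP20187, 61.2% to 64.0% with vehicle and 57.9% to 60.6% in wild type, and 46.4% to 49.0% over the brown fat arrays. On white fat AP20187 arrays 1 to 3, 2.11%, 4.55% and 1.19% of spots lay in areas of weak signal, against at most 0.022% on any other array. Markers of epididymis, which borders the gonadal fat pad, averaged 8.04, 0.0028 and -5.43 on those arrays, against -4.96 and -5.64 with vehicle and -4.17 to -1.77 in wild type. Of the 6 epididymis markers, 5, 6 and 1 were well above background on AP20187 arrays 1 to 3, against 2 and 1 with vehicle and 4, 2 and 4 in wild type. Hepatocyte markers averaged 2.53, 2.45 and 1.07 with AP20187, against 1.397 and 5.10 with vehicle and 0.31 to 2.14 in wild type, so that vehicle array 2, of 2 such arrays, stood highest. Lymphocyte markers averaged -3.41 to -2.62 with AP20187, against -2.08 and -2.07 with vehicle. Macrophage markers averaged 1.43, 3.88 and 3.60 on AP20187 arrays 1 to 3, against 3.77 and 3.84 with vehicle. Endothelium markers averaged -0.49, 2.14 and 1.94 on those AP20187 arrays, against 1.78 and 1.81 with vehicle. The part of these markers in the results was not tested. Markers of adipocytes, the cells that carry out this synthesis in fat, averaged 6.72, 9.08 and 8.13 on AP20187 arrays 1 to 3, against 7.74 and 7.72 with vehicle and 7.54 to 7.83 in wild type. Of the 6 adipocyte markers, 5, 5 and 6 were well above background on AP20187 arrays 1 to 3, against 6 on every vehicle and wild-type array. Brown adipocyte markers averaged 6.99 to 8.12 on the brown fat arrays and at most 2.09 on the white fat arrays, which matches the tissue labels of these 12 arrays. In bulk tissue, fewer cells of a type and less RNA per cell cannot be told apart.

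Promoters were available for 8 of the 10 genes, as 11 windows. The 200 bases before a start site are printed for the most downstream of 3 starts of Srebf1, the member past the threshold in white fat against wild type. They are also printed for Fasn and Acly, which lay above vehicle on every AP20187 array of white fat. Both starts of Mlxipl are printed, the only member whose windows matched the letters searched for the sterol regulatory element or the E-box. Scd1 and Scd2 had no window. Capitals mark matches, on either strand, to the sterol regulatory element TCACNCCAC, the E-box CACGTG, the CCAAT box CCAAT or the GC box GGGCGG. The sequences are RefSeq's, on build GRCm38.p6, written 5′ to 3′ on the strand of the gene.
Srebf1 (chr11:60210472-60210671, minus strand): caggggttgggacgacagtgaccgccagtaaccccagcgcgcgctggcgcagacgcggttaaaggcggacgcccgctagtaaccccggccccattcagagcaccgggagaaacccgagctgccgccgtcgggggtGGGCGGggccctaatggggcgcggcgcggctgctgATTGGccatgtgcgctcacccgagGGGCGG
Mlxipl (chr5:135106691-135106890, plus strand): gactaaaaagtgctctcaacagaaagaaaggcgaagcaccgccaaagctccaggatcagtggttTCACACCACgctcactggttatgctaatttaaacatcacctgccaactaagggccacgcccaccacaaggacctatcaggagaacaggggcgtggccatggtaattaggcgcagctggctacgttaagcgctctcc
Mlxipl (chr5:135089690-135089889, plus strand): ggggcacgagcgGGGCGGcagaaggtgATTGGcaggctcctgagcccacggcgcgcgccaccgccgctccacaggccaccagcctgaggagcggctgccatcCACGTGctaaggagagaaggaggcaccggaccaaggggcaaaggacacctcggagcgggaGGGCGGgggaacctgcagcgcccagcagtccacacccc
Fasn (chr11:120824548-120824747, minus strand): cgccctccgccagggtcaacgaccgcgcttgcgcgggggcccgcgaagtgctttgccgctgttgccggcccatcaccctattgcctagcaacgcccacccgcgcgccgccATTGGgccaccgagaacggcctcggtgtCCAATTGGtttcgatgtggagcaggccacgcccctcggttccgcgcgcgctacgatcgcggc
Acly (chr11:100528001-100528200, minus strand): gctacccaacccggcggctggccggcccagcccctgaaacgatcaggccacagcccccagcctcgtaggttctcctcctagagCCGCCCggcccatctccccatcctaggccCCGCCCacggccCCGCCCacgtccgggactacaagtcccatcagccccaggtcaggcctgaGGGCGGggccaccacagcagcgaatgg

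The sterol regulatory element, the site that SREBP factors bind, occurred in 1 of the 11 windows, at position -136 of the downstream Mlxipl start, and in 0.858% of the 32851 windows of all genes. The E-box CACGTG, a site of factors such as USF, occurred in 1 window, at position -98 of the upstream Mlxipl start, and in 5.26% of all windows. CCAAT boxes occurred in 6 of the 11 windows, of Acacb, Fasn, Mlxipl, Srebf1 and Thrsp, and in 29.3% of all windows. In the Fasn window a forward match at -62 and a reverse match at -59 overlap. GC boxes occurred in 4 windows, of Acly, Mlxipl and Srebf1, and in 31.0% of all windows. TGATGNAAN, written for the C/EBP-ATF response element that ATF4 binds below PERK, occurred in 0 of the 11 windows and in 2.86% of all. Such matches describe letters only. Other spellings of these sites and sequence outside the windows were not searched, so a window without a match does not show that a gene lacks the site.

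The first question was how these genes stood in white fat 12 h after AP20187. Of the 10, 8 had a positive change, as had 58.8% of all features, and 2 a negative one. None passed the threshold, against 2.24% of all features. Their median change was 0.87, beside 0.15 for all features, and was 0.41 with quantile scaling, 0.37 with normexp as well and 1.48 without AP20187 array 1. On every AP20187 array 4 genes lay above both vehicle arrays, namely Srebf1, Acly, Scd2 and, by a margin that rounding removes, Fasn. None lay below, as 12.4% of features did. Without AP20187 array 1, Acacb and Srebf1 passed, among 2258 features. For comparison, 25.0% of the 23535 features with a value on all 5 arrays lay above in this way. The count of 8 positive changes was 6 with quantile scaling, with or without normexp, and 7 with the percentile taken over probes above background on all arrays. That last scaling moved the median of all features to -0.16 and the split of calls to 7 higher and 220 lower, against 428 higher and 120 lower as reported here.

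**Figure D1:**
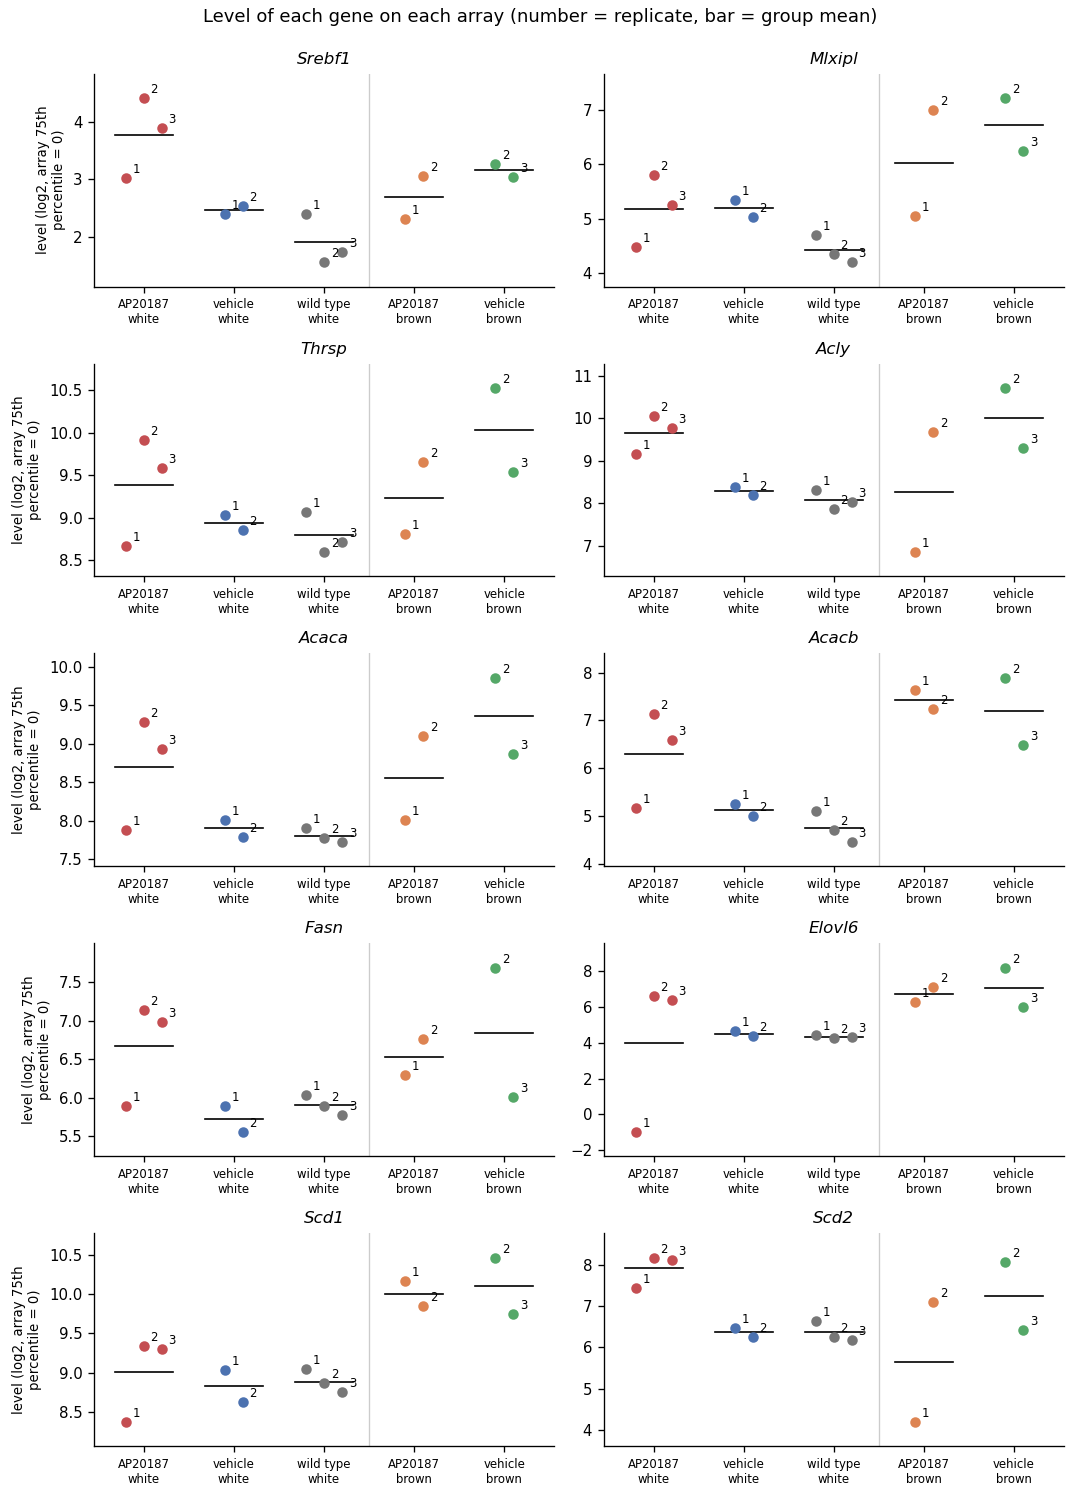
Level of each of the 10 genes (log2 of the processed intensity, with the array's 75th percentile at 0) on each of the 12 arrays, by group, with replicate numbers beside the points and the group mean as a bar. In white fat with AP20187, array 1 is the lowest and array 2 the highest of the 3 in all 10 panels.

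Among the regulators, Srebf1 had levels of 3.03, 4.41 and 3.89 in white fat with AP20187, against 2.40 and 2.53 with vehicle. The groups did not overlap, and the AP20187 mean was 3.78 ± 0.70 (SD, n = 3), against 2.47 ± 0.10 (n = 2). The change was 1.31 (SE 0.42, 2.49-fold), the one with an unadjusted p under 0.05 among the 10 (22.3% of all features had one), and limma's adjusted p was 0.121. Without AP20187 array 1 the change was 1.69, with an adjusted p of 0.0355 by limma. Mlxipl measured 4.49, 5.80 and 5.25 with AP20187, against 5.35 and 5.04 with vehicle. Those groups overlapped, and the change was -0.02 (95% confidence interval -1.34 to 1.30). The spot of Mlxipl on AP20187 array 2 lay in an area of weak signal. Thrsp measured 8.66, 9.92 and 9.59 with AP20187, against 9.03 and 8.85 with vehicle, a change of 0.45 (SE 0.43). AP20187 array 1 lay below both vehicle arrays and arrays 2 and 3 above them.

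Among the enzymes that make malonyl-CoA, Acly measured 9.17, 10.06 and 9.77 in white fat with AP20187, against 8.38 and 8.19 with vehicle. The groups did not overlap, with a change of 1.38 (SE 0.73, 2.61-fold) and a limma adjusted p of 0.30. Its second probe gave 1.41. Acaca, the cytosolic carboxylase, measured 7.88, 9.28 and 8.93 with AP20187, against 8.01 and 7.79 with vehicle, a change of 0.80 (SE 0.47), and its 3 probes gave 0.48 to 0.80. Acacb, the carboxylase at the mitochondrial surface whose malonyl-CoA restrains fatty acid oxidation, measured 5.17, 7.14 and 6.59 with AP20187, against 5.24 and 4.998 with vehicle. For both carboxylases AP20187 array 1 lay between the vehicle arrays, while arrays 2 and 3 lay above them. The Acacb change was 1.18 (SE 0.58), and 1.74 without array 1 (limma's adjusted p = 0.0492).

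Fasn, the synthase itself, measured 5.89, 7.14 and 6.98 in white fat with AP20187, against 5.89 and 5.56 with vehicle, a change of 0.95 (SE 0.50, 1.93-fold, limma's adjusted p = 0.30). AP20187 array 1 and vehicle array 1 had the same level to 2 decimals. Scd2, the desaturase isoform abundant in brain and also made in fat, measured 7.45, 8.18 and 8.13 with AP20187, against 6.47 and 6.26 with vehicle. It had the largest change of the 10 by point estimate, 1.56 (SE 0.77, 2.94-fold), without overlap and with a limma adjusted p of 0.27. Scd1, the main desaturase of liver and fat, measured 8.38, 9.34 and 9.31 with AP20187, against 9.03 and 8.64 with vehicle. Its change was 0.18 (95% confidence interval -0.58 to 0.94), and it was -0.46 with quantile scaling.

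Elovl6 differed most between the AP20187 arrays, at -0.97, 6.61 and 6.38, against 4.66 and 4.36 with vehicle. Its spot on AP20187 array 1 had a residual of -5.47 from the median of the other white fat arrays. The 10 usable spots of the window centred on it, itself included, had a median residual of -1.02. A median under -1 marked a weak area, so the spot's own value counted towards that mark. The array 1 spot decides the value: the change was -0.51 (SE 1.95) with it and 1.98 without spots in areas of weak signal (limma's adjusted p = 0.12). On arrays 2 and 3 Elovl6 lay above both vehicle arrays.

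The 10 genes kept 1 order across the AP20187 arrays of white fat. Array 1 was the lowest and array 2 the highest of the 3 for all 10 genes, and array 2 was the highest of all 8 white fat arrays for all 10. Array 2 lay above both vehicle arrays for 10 genes and array 3 for 9, the exception being Mlxipl. Array 1 lay above both for 4 and below both for 4, which were Scd1, Elovl6, Mlxipl and Thrsp. Relative to the vehicle mean, the median difference over the 10 genes was 0.01, 1.60 and 1.35 on AP20187 arrays 1 to 3. Adipocyte markers, epididymis markers and weak areas differed between the same arrays, as given above, and their part in these values was not tested. With arrays 1 and 2 left out together, the members' median change from vehicle was 1.35. That value rests on array 3 alone, with epididymis markers at -5.43.

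**Figure D2:**
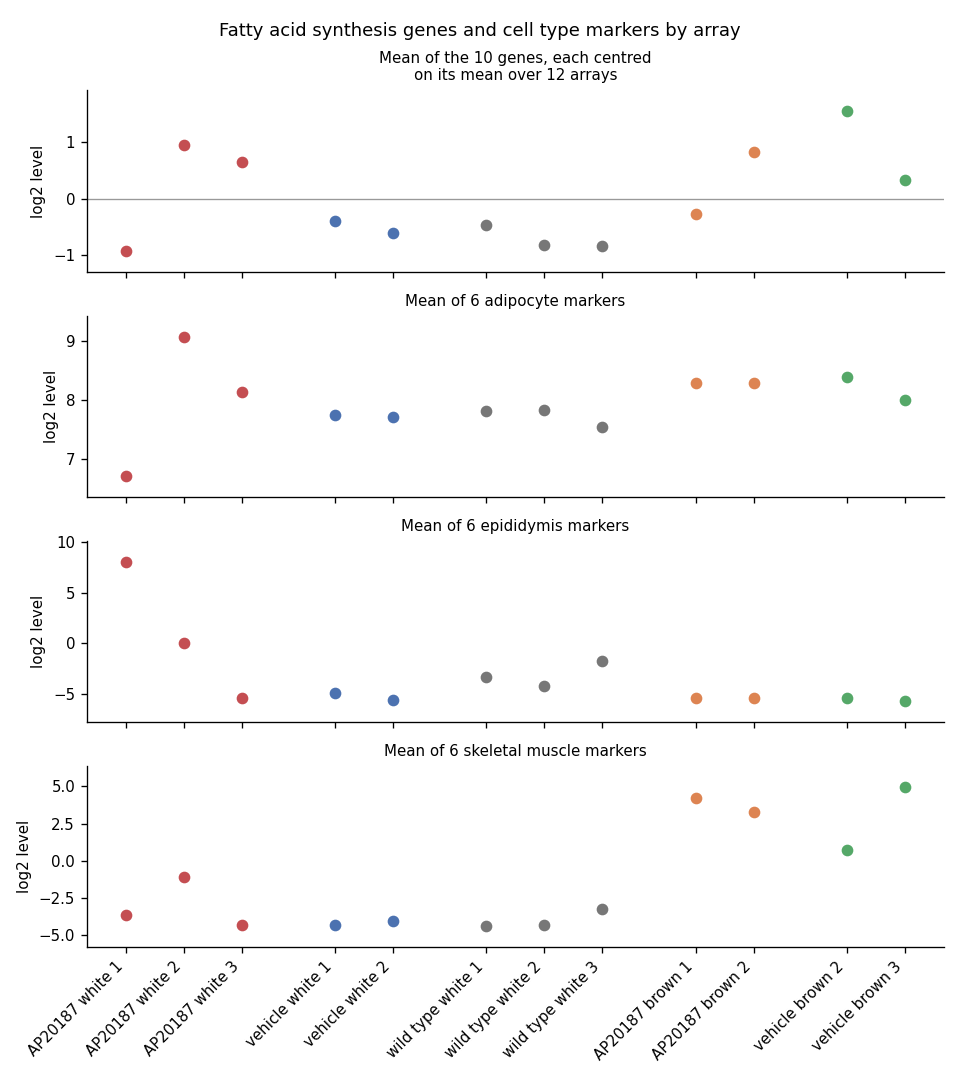
Mean of the 10 genes (top, log2, each gene centred on its mean over the 12 arrays) and mean log2 level of adipocyte, epididymis and skeletal muscle markers (6 each) on each array. In white fat with AP20187 the 10 genes stand at -0.92, 0.95 and 0.65 on arrays 1 to 3, and the adipocyte markers at 6.72, 9.08 and 8.13. Of those 6 markers, 5, 5 and 6 were well above background on these arrays.

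In brown fat the same comparison gave mostly negative changes. Of the 10 genes, 9 had a negative change after AP20187, as had 54.5% of all features, and 1, Acacb, a positive one. None passed the threshold, against 0.00818% of all features. Their median change was -0.58, beside -0.04 for all features. With quantile scaling, with or without normexp, 8 were negative, as Scd1 turned to 0.05 and 0.06. None of the 10 genes separated the groups, while 15.7% of features lay above and 21.6% below on both AP20187 arrays.

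**Figure D3:**
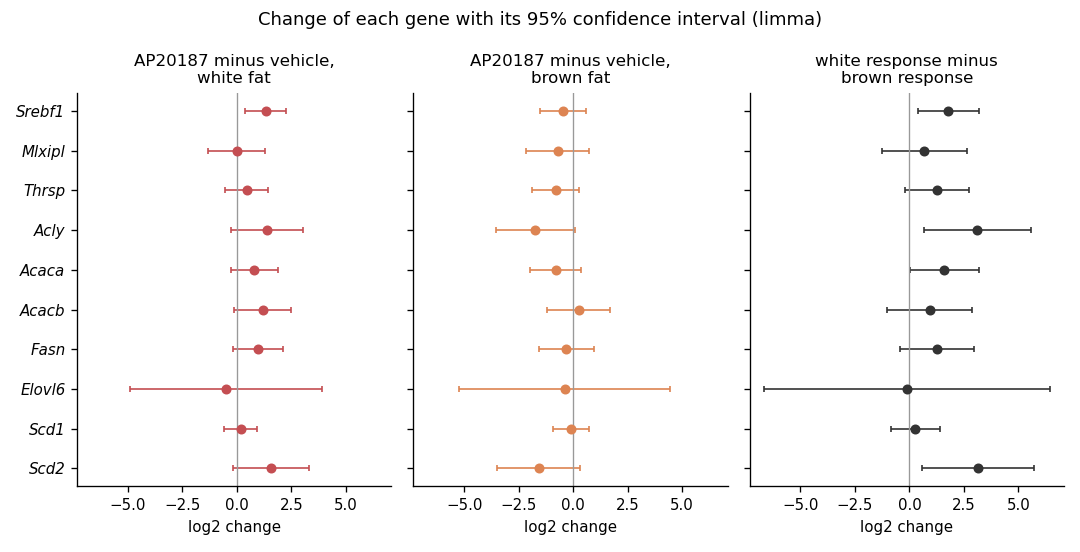
Log2 change of each gene with its 95% confidence interval (limma): AP20187 minus vehicle in white fat (left) and in brown fat (middle), and the white response minus the brown response (right). The interval excludes 0 for Srebf1 in white fat and for Srebf1, Acly, Acaca and Scd2 in the difference, before any adjustment.

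The brown fat arrays spread widely within each group. Srebf1 measured 2.32 and 3.06 with AP20187, against 3.27 and 3.04 with vehicle. Mlxipl measured 5.05 and 6.999 with AP20187, against 7.21 and 6.25 with vehicle. Thrsp measured 8.81 and 9.66 with AP20187, against 10.53 and 9.54 with vehicle. For these 3 regulators AP20187 array 1 was the lowest of the brown fat arrays and vehicle array 2 the highest, and their changes were -0.46, -0.70 and -0.80. Acly measured 6.86 and 9.69 with AP20187, against 10.72 and 9.30 with vehicle. That is the largest negative change of the 10, -1.74 (SE 0.80), with a limma adjusted p of 0.70. Acaca measured 8.01 and 9.10 with AP20187, against 9.85 and 8.87 with vehicle. Acacb, the one positive change at 0.25 (SE 0.63), measured 7.63 and 7.24 with AP20187, against 7.89 and 6.49 with vehicle.

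Scd2 measured 4.20 and 7.11 in brown fat with AP20187, against 8.07 and 6.42 with vehicle, a range of 2.91 between the AP20187 arrays alone. Its change was -1.59 (SE 0.84, limma's adjusted p = 0.76). Scd1 varied less, at 10.16 and 9.85 with AP20187, against 10.46 and 9.74 with vehicle. Fasn measured 6.29 and 6.76 with AP20187, against 7.68 and 6.01 with vehicle. Elovl6 measured 6.28 and 7.12 with AP20187, against 8.18 and 5.98 with vehicle. For Fasn, Acacb, Scd1 and Elovl6 the vehicle arrays enclosed both AP20187 arrays. Vehicle array 2 was the highest brown fat array for all 10 genes. Skeletal muscle markers averaged 4.19 and 3.29 on AP20187 arrays 1 and 2, against 0.72 and 4.95 with vehicle, lowest on that same vehicle array 2. The part of muscle RNA in these values was not tested. The members' median change was -1.03 without AP20187 array 2, -0.11 without AP20187 array 1, -1.24 without vehicle array 3 and -0.27 without vehicle array 2, so it stayed negative but depended on single arrays.

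The difference between the responses, white minus brown, was positive for 9 of the 10 genes (58.3% of all features) and negative for Elovl6, with a median of 1.26 beside 0.16 for all features. That median was 0.71 with quantile scaling and 0.59 without brown fat vehicle array 2. None passed the threshold, and of all features 0% did, while 16.5% of all features had an unadjusted p under 0.05. Of the 10 genes, 4 had such a p. Scd2 differed by 3.14 (SE 1.14), Acly by 3.12 (SE 1.09), Srebf1 by 1.78 (SE 0.62) and Acaca by 1.60 (SE 0.70), with limma's adjusted p between 0.21 and 0.30. White and brown fat therefore are not shown to differ in their response for any of the 10. All brown fat arrays lie on 1 slide and all white fat arrays on others, so tissue and slide cannot be told apart where levels are compared.

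The second question was whether the transgene line differed from wild type without AP20187. In white fat 8 of the 10 genes had a positive change in Fv2E-PERK mice with vehicle against untreated wild type, as had 52.6% of all features. None passed the threshold, against 0.0245% of all features. The median was 0.16, beside 0.02 for all features. Mlxipl alone separated the groups, at 5.35 and 5.04 with vehicle, against 4.70, 4.36 and 4.21 in wild type, as 19.4% of features did in this direction and 15.3% in the other. Its change was 0.77 (95% confidence interval -0.54 to 2.09). For the other 9 the groups overlapped, and Scd2 averaged 6.37 ± 0.15 (SD, n = 2) with vehicle and 6.37 ± 0.25 (n = 3) in wild type. Srebf1 stood at 2.40 and 2.53 with vehicle, against 2.40, 1.56 and 1.74 in wild type. This comparison differs in genotype and in injection together, which cannot be told apart.

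The same AP20187 arrays were also set against wild type, so this comparison is not independent of the first. Genotype, injection, ligand and slide all differ together here and cannot be told apart. Srebf1 was higher by 1.88 (SE 0.37, 3.67-fold, limma's adjusted p = 0.0287), averaging 3.78 ± 0.70 (SD, n = 3) with AP20187 and 1.90 ± 0.44 (n = 3) in wild type. It was the only one of the 10 past the threshold, against 8.87% of all features, and 9 of the 10 changes were positive, as were 60.0% of all. Left-out arrays moved its change between 1.56 and 2.25. The call was lost with quantile scaling, with or without normexp, with only the compared arrays fitted, with slide as a fixed block or replicate number as a block, and without any 1 of AP20187 arrays 2 or 3 or of wild-type arrays 1, 2 or 3. Without AP20187 array 1, Acaca (1.31), Acacb (2.11) and Elovl6 (2.15) passed beside Srebf1 (2.25). In that fit 5342 features passed, against 2169 as reported here.

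Acacb, Acly and Scd2 lay, with Srebf1, above every wild-type array on all 3 AP20187 arrays, as 25.9% of features did. On the second probe of Acacb the groups overlapped, at 0.36 on the lowest AP20187 array against 0.26 to 0.92 in wild type. Acacb was 4.46 to 5.10 in wild type, a change of 1.54 (SE 0.52), Acly 7.87 to 8.31, a change of 1.60 (SE 0.66), and Scd2 6.18 to 6.65, a change of 1.56 (SE 0.69). Limma's adjusted p for these 3 lay between 0.091 and 0.175. Fasn was 5.77 to 6.04, Acaca 7.72 to 7.90, Scd1 8.75 to 9.04, Elovl6 4.25 to 4.45 and Thrsp 8.60 to 9.07 in wild type. For these 5 genes the range within wild type was narrower than that over the AP20187 arrays.

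Across tissues, the 10 genes were higher in vehicle brown fat than in vehicle white fat by the group means of every member, as were 54.9% of all features. The median change was 1.36, beside 0.11 for all features, and 2 genes passed, against 23.4% of all features. The median was 0.52 with quantile scaling, 0.44 with normexp as well, and 0.94 and 1.96 without brown fat vehicle arrays 2 and 3. Acacb was higher by 2.07 (SE 0.63, 4.20-fold, limma's adjusted p = 0.0443), averaging 7.19 ± 0.98 in brown fat and 5.12 ± 0.17 in white fat (SD, n = 2 each). Its second probe gave 2.17 and did not pass in a fit of all probes (limma's adjusted p = 0.0641). Scd1 was higher by 1.27 (SE 0.37, 2.41-fold, limma's adjusted p = 0.0367), averaging 10.10 ± 0.51 in brown fat and 8.83 ± 0.28 in white fat. Both brown fat arrays lay above both white fat arrays for 9 of the 10, all but Scd2, as 39.0% of features did. With quantile scaling the change of Thrsp was -0.17, and neither Acacb nor Scd1 passed. Neither passed without vehicle array 2 of brown fat, either vehicle array of white fat or any wild-type array, while Acaca and Elovl6 passed as well without AP20187 array 1 of white fat. Without AP20187 array 1 of white fat, 8042 features passed, against 5732 as reported here. Slide and tissue cannot be told apart here.

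Ranked by group mean, vehicle brown fat was highest for 7 genes, white fat with AP20187 for Srebf1 and Scd2, and brown fat with AP20187 for Acacb. Wild-type white fat was lowest for 6 genes. Of the 40 pairs of neighbours in these orders, 36 overlapped in their arrays. The 4 that did not were brown fat with AP20187 over wild-type white fat for Fasn, white fat with AP20187 over vehicle white fat for Acly, brown fat with AP20187 over white fat with AP20187 for Scd1, and brown fat with AP20187 over vehicle white fat for Elovl6.

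The members varied together to different degrees across arrays. Over the 45 pairs, Pearson's r had a median of 0.71 across the 12 arrays (-0.03, between Scd1 and Scd2, to 0.98, with 12 pairs over 0.8), 0.84 across the 8 white fat arrays and 0.96 across the 7 white fat arrays without AP20187 array 1. The arrays share tissue, slide and scaling, so these values describe the set and are not tested. Outside the lists, the genes most like the mean of the 10, by Pearson's r over the 12 arrays, were Ppp2ca (0.98), Alg14 (0.97), Slc19a1 (0.96), Pfkp (0.96), Kdm5c (0.95) and 5730455P16Rik (0.95). Pfkp, a phosphofructokinase of glycolysis, measured 1.96, 3.31 and 3.23 in white fat with AP20187, against 2.25 and 2.20 with vehicle.

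Neighbouring pathways were read through 5 lists of 46 genes, all tested. Acetyl-CoA and NADPH supply had 9 of 10 positive changes in white fat after AP20187 (median 0.71) and 9 of 10 negative in brown fat (median -0.74), and none passed in either tissue. Me1, malic enzyme, a source of NADPH, measured 8.16, 9.33 and 9.05 in white fat with AP20187, against 7.74 and 7.67 with vehicle, a change of 1.14 (SE 0.48, limma's adjusted p = 0.21). In brown fat it measured 6.50 and 7.45 with AP20187, against 8.54 and 7.10 with vehicle. Tkt and Taldo1, of the pentose phosphate pathway, and Mdh1, malate dehydrogenase, passed in vehicle brown against vehicle white fat, higher by 1.68 (SE 0.33), 1.58 (SE 0.38) and 1.29 (SE 0.37). Over the 5 lists, 13 of 46 genes (28.3%) passed in that comparison, near the 23.4% of all features.

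**Figure D4:**
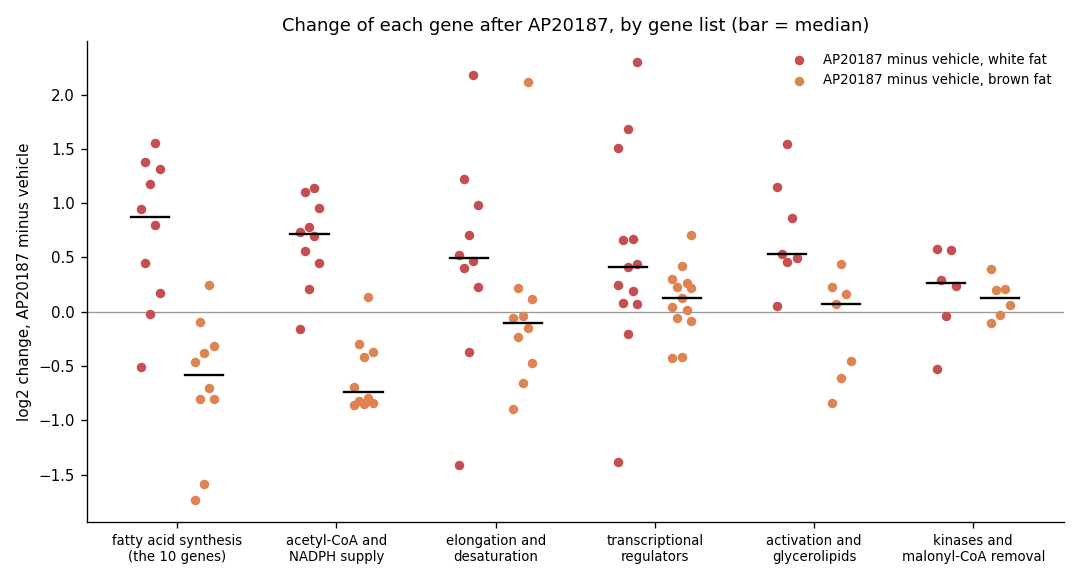
Log2 change of each gene, AP20187 minus vehicle, in white fat (left in each pair) and in brown fat (right), for the 10 genes and 5 lists, with the median as a bar. The medians of the 10 genes are 0.87 and -0.58, and those of the supply list 0.71 and -0.74.

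Of 13 transcriptional regulators, Mlx passed in white fat after AP20187 (1.68, SE 0.30, limma's adjusted p = 0.0459). That is 1 of the 46 list genes (2.17%), near the 2.24% of all features. In this comparison 0 features passed with the authors' table, with the compared arrays alone or with any wild-type array left out. Mlx is the partner with which ChREBP binds DNA. It measured 3.51 and 3.22 on AP20187 arrays 2 and 3, against 1.86 and 1.501 with vehicle, and its spot on array 1 was dropped as an outlier, so the value rests on 2 arrays. Mid1ip1, which helps acetyl-CoA carboxylase to polymerise, measured 7.40, 7.49 and 7.28 with AP20187, against 4.95 and 5.24 with vehicle. Unlike the 10 genes, it was level on all 3 AP20187 arrays. Its change was 2.29 (SE 0.56, limma's adjusted p = 0.0652) against vehicle and 2.15 (SE 0.50, adjusted p = 0.0371) against wild type. In brown fat it measured 4.22 and 6.43 with AP20187, against 6.14 and 5.34 with vehicle.

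Among 10 other elongation and desaturation genes none passed in white fat after AP20187 against vehicle. Tecr, the last reductase of the elongation cycle, passed against wild type, at 5.36, 5.61 and 5.18 with AP20187, against 4.61, 4.61 and 4.50 (0.81, SE 0.21, limma's adjusted p = 0.0494). Elovl3, an elongase of brown fat, measured -2.38, -1.18 and -2.13 with AP20187, against -6.39 and -1.77 with vehicle. The vehicle value of -6.39 was not well above background, so the size of its change is not given, and those groups overlapped. Between vehicle brown and vehicle white fat, the change was -1.51 (SE 0.34) for Elovl1 and 1.26 (SE 0.26) for Tecr, and both passed. Elovl7 was not well above background on either brown fat array and was at least 4.25-fold higher in vehicle white fat (limma's adjusted p = 0.0332), a bound against the lowest signal above background.

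In fatty acid activation and glycerolipid synthesis all 7 changes were positive in white fat after AP20187 and none passed. Gpam, which starts glycerolipid synthesis, measured 0.50, 2.16 and 1.48 with AP20187, against 0.52 and -0.06 with vehicle. It passed against wild type (1.71, SE 0.42, limma's adjusted p = 0.0424). Gpam, Tecr, Mid1ip1 and Mlx were the 4 of 46 list genes to pass against wild type (8.7%), near the 8.87% of all features. Against wild type 0 features passed with the compared arrays alone, slide as a fixed block, the replicate block or any wild-type array left out. Lpin1 and Acsl1, a phosphatidate phosphatase and an acyl-CoA synthetase, were higher in vehicle brown than vehicle white fat by 1.60 (SE 0.43) and 0.96 (SE 0.28). Of 6 kinase and malonyl-CoA genes none passed after AP20187 in either tissue. Prkab1, a subunit of AMPK, which phosphorylates the carboxylases, measured 0.10, 0.16 and -0.09 in white fat with AP20187, against -0.62 and -0.43 with vehicle. Mlycd, which removes malonyl-CoA, was higher by 1.83 (SE 0.34) in vehicle brown than in vehicle white fat.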

How the data were processed

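Total RNA of white and brown fat was hybridised to 1-colour (Cy3) Agilent arrays of design 028005. Per the file headers, the deposited intensity was made by Feature Extraction 10.7.1.1 on build mm9, and their statistics list background subtraction and detrending fits. The authors' value table gives intensity too. It equalled the processed signal within 0.1% for 99.0% to 99.2% of values, so no scaling or centring between arrays was found. Its columns' medians were 32.5 to 96.5 over the 12 arrays.

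Outlier spots were dropped (1300 missing values), and repeated spots were averaged per probe. Levels are log2(intensity) minus the array's 75th percentile. A filter kept the 32611 probes that rose well above background throughout 1 group or more, and the brightest probe per gene gave 24456 features. RefSeq names on assembly GRCm38.p6 matched 26056 of 55681 probes. A single limma model held all 12 arrays (limma 3.58.1, R 4.3.3), and the fit was tested on simulated data. The number of arrays limits the precision. Wild-type arrays and vehicle array 1 of white fat share slide 1, vehicle array 2 and the AP20187 arrays of white fat slide 2, and brown fat slide 3.

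All 10 genes are named. Of each pathway list, genes past the threshold are named (at most 4 a comparison), otherwise the largest change, and outside the lists the 6 genes most like the members' mean. Members and lists were chosen with earlier results of these data known. The alternatives tried were quantile scaling, normexp (offset 50) before it, another percentile, the authors' table, other filters, the mean of a gene's probes, the compared arrays alone, slide or replicate blocks, leaving out spots in weak areas (the window was chosen after seeing the data), and each array left out. Leaving out both arrays with epididymal transcripts was added after seeing the data.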

Additional observations from a re-analysis of the deposited data

Results flagged for a closer look

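For 2 genes of the pathway lists, every AP20187 array lay above both vehicle arrays in white fat and below both in brown fat. They are 2 of the 41 list genes with a value on all these arrays, and 6.74% of 23531 features had the same pattern. Tkt, transketolase of the pentose phosphate pathway, measured 8.75, 9.80 and 9.54 in white fat with AP20187, against 8.67 and 8.59 with vehicle. In brown fat Tkt measured 9.30 and 9.67 with AP20187, against 10.53 and 10.09 with vehicle. The difference of the responses, white minus brown, was 1.56 (SE 0.45), and limma's adjusted p of 0.154 did not pass. Tecr, the last reductase of fatty acid elongation, measured 5.36, 5.61 and 5.18 in white fat with AP20187, against 4.68 and 4.12 with vehicle. In brown fat Tecr measured 4.99 and 5.03 with AP20187, against 5.96 and 5.37 with vehicle. Its difference was 1.63 (SE 0.35), and limma's adjusted p of 0.131 did not pass. The AP20187 arrays of white fat also carried weak areas and, on 2 of them, epididymal transcripts, and their part in these values was not tested.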

How the results depend on the processing

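Of 1490 refits of a member in a comparison, 1376 kept direction and side of the threshold and 60 changed sign. Part of this was fixed in advance, because some refits could not move a change, such as those leaving out an array of a group not compared. No member passed in brown fat after AP20187, in the difference between tissues or between vehicle and wild type under any alternative. Members past the threshold in AP20187 against wild type (1, among 2169 features called) were 0 with quantile scaling (110 features) and with normexp (226). They were 0 with the compared arrays alone, with slide as a fixed block and with the replicate block, where 0 features passed. With slide as a random block (consensus correlation -0.25) 7 members and 13480 features passed, and without weak areas 2 members and 2534 features. In brown against white fat (2, among 5732 features called) they were 0 with quantile scaling (5753 features) and with normexp (5672). They were also 0 with the compared arrays alone (4235) and with the replicate block (3903), and 1 with the mean of probes (5209). Slide as a fixed block could not be fitted there. Leaving out 1 array gave 0 to 2 calls in white fat after AP20187 and 0 to 4 in each of these 2 comparisons. The median change of the members against wild type was 0.57 to 1.55 with 1 array left out. The causes were not tested.

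In white fat after AP20187, Scd1 changed sign with quantile scaling (-0.46), normexp (-0.43) and the other percentile (-0.13), Thrsp with quantile scaling (-0.14) and normexp (-0.089), Mlxipl with slide fixed (0.14), the replicate block (0.064) and without epididymal arrays (0.051), and Elovl6 without those arrays (1.87) and without weak areas (1.98). In brown fat, Scd1 did so with quantile scaling (0.050) and normexp (0.065) and Elovl6 with the replicate block (0.67). In the difference, Scd1 did so with quantile scaling (-0.51), normexp (-0.50) and the other percentile (-0.012), and Elovl6 with slide fixed (0.024), without weak areas (2.36) and without epididymal arrays (2.25). In vehicle against wild type, Scd2 did so with quantile scaling (-0.060), normexp (-0.061), the other percentile (-0.071), the authors' table (-0.0024), slide random (-0.026) and the replicate block (-0.10), and Scd1 with slide fixed (0.14). Against wild type, AP20187 Scd1 did so with quantile scaling (-0.46), normexp (-0.48) and the other percentile (-0.25), and Elovl6 without weak areas (2.15) and epididymal arrays (2.04). In brown against white fat, Thrsp did so with quantile scaling (-0.17) and normexp (-0.16) and Scd1 with normexp (-0.0038).

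With 1 array left out, changes ran as follows where a sign or median moved: in white fat after AP20187 Elovl6 -1.81 to 1.98, Mlxipl -0.33 to 0.33, Scd1 -0.022 to 0.49; in brown fat after AP20187 Elovl6 -1.48 to 0.72, Mlxipl -1.68 to 0.27, Scd1 -0.46 to 0.26, Fasn -1.16 to 0.52, Acacb -0.45 to 0.94. Likewise, in the difference Elovl6 -1.43 to 2.36, Mlxipl -0.29 to 1.66, Scd1 -0.088 to 0.63; in vehicle against wild type Acaca -0.0095 to 0.21, Scd2 -0.11 to 0.14, Scd1 -0.25 to 0.14; in AP20187 against wild type Elovl6 -1.64 to 2.15, Scd1 -0.047 to 0.43.

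The deviations of same-numbered arrays were little correlated (19 pairs, r -0.23 to 0.11). With so few arrays in a group, such values cannot decide whether the numbers pair arrays, for instance tissues of the same mouse. With the replicate block 0 members passed in all 6 comparisons. Features called in white fat after AP20187 were 548 as reported, 0 with the replicate block, 0 with the authors' table and 5512 without a filter. With quantile scaling and the other percentile, calls against wild type were 68 higher and 42 lower, and 104 higher and 1023 lower, beside 1762 and 407 as reported. In brown against white fat the other percentile gave 2682 higher and 3392 lower, beside 3491 and 2241. Weak and lost spots limit the white fat AP20187 arrays.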

Other observations

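More genes of the neighbouring lists passed between vehicle brown and vehicle white fat, where 23.4% of all features passed. Nr1h2, the liver X receptor beta, which activates Srebf1, measured 5.10 and 5.02 in brown fat, against 4.31 and 4.32 in white fat, a change of 0.74 (SE 0.17, limma's adjusted p = 0.0156). Usf1, a factor that binds the E-box, measured -2.53 and -2.34 in brown fat, against -1.82 and -1.97 in white fat, a change of -0.54 (SE 0.16, limma's adjusted p = 0.0424). Prkab2, a beta subunit of AMPK, measured -0.22 and 0.031 in brown fat, against 0.80 and 0.99 in white fat, a change of -0.99 (SE 0.27, limma's adjusted p = 0.0295). Prkab1, the other beta subunit, measured 1.68 and 0.48 in brown fat, against -0.62 and -0.43 in white fat, a change of 1.60 (SE 0.38, limma's adjusted p = 0.0167). Tissue and slide cannot be told apart in these values. No gene of the lists passed in brown fat after AP20187, where the named changes were -0.86 for Pgd (SE 0.72), 0.71 for Usf2 (SE 1.34) and -0.84 for Pnpla3 (SE 0.53). Fads2 had a change of -0.92 (SE 0.82) in vehicle against wild type, and Acss2 of 1.101 (SE 0.63) in AP20187 against wild type, and neither passed.

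The array that was put in no group has a title and tissue label of brown fat and a source name of white fat. On it Srebf1 measured 2.51, Mlxipl 4.85, Thrsp 8.61, Acly 8.08, Acaca 7.77, Acacb 5.43, Fasn 5.51, Elovl6 4.41, Scd1 8.78 and Scd2 6.28. The vehicle and wild-type arrays of white fat spanned 1.56 to 2.53 for Srebf1, 4.25 to 4.66 for Elovl6 and 8.64 to 9.04 for Scd1, which include its values. The 4 brown fat arrays spanned 5.98 to 8.18 for Elovl6 and 9.74 to 10.46 for Scd1, which do not. Mlxipl, Thrsp, Acaca, Acacb and Fasn also lay below the lowest brown fat array (5.05, 8.81, 8.01, 6.49 and 6.01). The array lies on slide 2, with white fat arrays. Its Srebf1, Acly and Scd2 levels lay inside the brown fat ranges too (2.32 to 3.27, 6.86 to 10.72 and 4.20 to 8.07). Fasn lay just below the lowest white fat array with vehicle or no treatment (5.56) and Acacb just above the highest (5.24).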
